A study of Mus musculus with 4 samples.

Results

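CC chemokines are small secreted proteins, named for a pair of adjacent cysteines near their start, that guide leukocytes through G protein-coupled receptors. Stromal cells, endothelium and leukocytes all make them, and in the heart fibroblasts and macrophages are known sources after injury. Members differ in whom they call: Ccl2 and Ccl7 attract monocytes through Ccr2, Ccl11 attracts eosinophils through Ccr3, and Ccl5, Ccl3 and Ccl4 attract T cells, NK cells and monocytes. The genes described here are Ccl2, Ccl3, Ccl4, Ccl5, Ccl6, Ccl7, Ccl8, Ccl9, Ccl11 and Ccl19. All probe sets that the array's annotation pairs with these 10 symbols were taken, which gave 12 of the 45037 probe sets used.

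The RNA came from Sca-1 positive cells of the adult mouse heart, freshly isolated by magnetic sorting. Cyc cells were from αMHC-CyclinT1/Gαq overexpressing double-transgenic mice with heart failure. Wt cells were from their wildtype littermates. All mice were of the FVB strain and 6 weeks old. The αMHC promoter drives both transgenes in cardiomyocytes. Each of the 4 arrays holds 1 pool of cells from 2 to 3 mice, and there are 2 Cyc pools and 2 Wt pools. The pools with the replicate number 1 are called experiment 1 and those with the number 2 experiment 2, and paired values are given in that order. The methods name 2 independent experiments. That the replicate numbers stand for them, in both genotypes, was assumed. Values are intensities on a linear scale, and one of 50 or more is called detected. Differences are Cyc minus Wt of log2(intensity + 16), a scale that understates the change of dim genes. In such bulk samples, more cells of a type and more RNA per cell cannot be told apart.

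The pools carried stromal, vascular and progenitor markers. All 10 fibroblast markers, all 10 endothelial markers and all 7 progenitor markers measured, Cd34 and Kit among them, were detected in every pool. Ly6a, the gene of Sca-1 itself, was not analysed here. Leukocyte markers were dim and uneven. Of 14 macrophage markers 4 and 9 were detected in the Cyc pools of experiments 1 and 2, against 5 and 2 in the Wt pools. The Cyc pool of experiment 2 stood apart also in airway epithelium genes, with Scgb1a1, a secretory protein of airway club cells, at 118.5 and 10194.7 in Cyc and 1783.7 and 3.2 in Wt cells. The poly-A labelling controls had medians of 258.8 and -0.9 in Cyc and 231.9 and 0.3 in Wt cells, so they part the experiments and not the genotypes. Precision is limited by the number of arrays.

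Most of the CC chemokines were dim. Of the 10 members 8 were detected in at least 1 pool, 4 of these in 1 pool only, and only Ccl2 in all 4 pools. The Cyc pools held 3 and 5 detected members, against 5 and 2 in the Wt pools of the same experiments. Over all probe sets the detected shares were 41.0% and 47.6% in the Cyc pools and 43.2% and 44.9% in the Wt pools. The detected members were not the same in both genotypes. Ccl2 and Ccl4 were detected in both, Ccl5, Ccl6 and Ccl9 in Cyc pools alone, and Ccl7, Ccl8 and Ccl11 in Wt pools alone. For Ccl6, Ccl7, Ccl8 and Ccl9 this rests on 1 pool each. The share of all probe sets detected in only 1 genotype was not computed, so the split is a description and no result about the members.

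**Figure D1:**
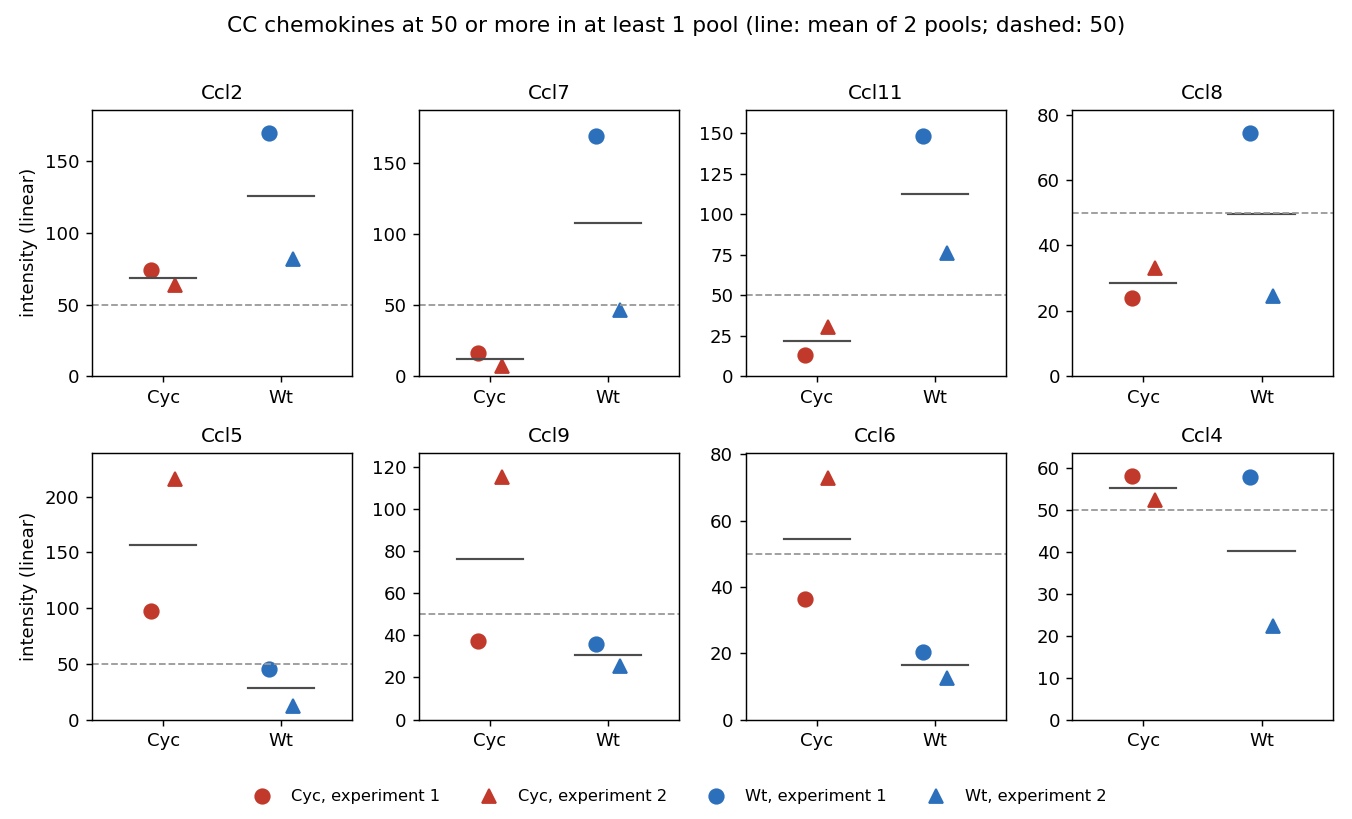
Intensity (linear scale) of the 8 detected CC chemokines in each pool, with Cyc on the left and Wt on the right of each panel; circles are experiment 1, triangles experiment 2, horizontal lines the mean of the 2 pools and the dashed line 50. Ccl2, Ccl7 and Ccl11 lie lower in both Cyc pools than in both Wt pools, Ccl5, Ccl9 and Ccl6 lie higher, and Ccl8 and Ccl4 overlap.

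Ccl11 (eotaxin-1), the eosinophil attractant, was low in Cyc cells. Its intensity was 13.1 and 30.4 in Cyc pools and 148.7 and 75.9 in Wt pools. Both Cyc pools were below the detection limit and both Wt pools above it, so the groups did not overlap. The difference was -2.50 in experiment 1 and -0.98 in experiment 2. Ccl11 fell by 1.74 in the limma fit (SE 0.42, 95% interval -2.83 to -0.65, unadjusted p = 0.00985, adjusted p = 1). On leaving out any 1 pool, which leaves a lone pool in 1 genotype, the difference was -1.32 to -2.16. As both Cyc pools were not above background, the linear change is given as a bound, with Ccl11 at least 2.12-fold lower in Cyc cells. A probe set passed when it changed at least 2-fold with an unadjusted p under 0.05, as 176 of 20680 did (0.851%) and 24 did downward (0.116%). With an adjusted p under 0.05 none passed (0.00%).

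Ccl7 (MCP-3), a monocyte attractant that signals through Ccr2, had a like pattern. It measured 16.5 and 6.9 in Cyc pools and 168.9 and 46.6 in Wt pools. Only the Wt pool of experiment 1 was above the limit, and both Cyc pools lay below both Wt pools. The difference was -2.51 in experiment 1 and -1.45 in experiment 2, with a mean of -1.98. As a bound on the group means, Ccl7 was at least 1.77-fold lower in Cyc cells, which takes in the undetected Wt pool of experiment 2. With 1 detected pool Ccl7 did not enter the main test, and without a filter on low values limma gave an unadjusted p of 0.0747 (adjusted p = 1). The size rests on the Wt pool of experiment 1, without which the difference was -1.20.

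Ccl2 (MCP-1), the main ligand of Ccr2 on monocytes, measured 73.9 and 63.5 in Cyc pools and 169.8 and 81.8 in Wt pools. Both Cyc pools were lower, yet the Cyc values lay close to that of the Wt pool of experiment 2. Mean intensities were 68.7 ± 7.41 in Cyc and 126 ± 62.2 in Wt cells (SD, n = 2 each). The difference was -1.05 and -0.30 in experiments 1 and 2. The limma fit gave -0.67 (SE 0.38, 95% interval -1.67 to 0.32, unadjusted p = 0.14, adjusted p = 1), which did not pass. Blocked by experiment, limma's unadjusted p was 0.0382 and the adjusted p 0.704, with the same fold change, under 2-fold. Without the Wt pool of experiment 1 the difference was -0.21.

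Ccl8 (MCP-2), which in the mouse acts on Ccr8, differed from these neighbors. It measured 23.9 and 33.0 in Cyc pools and 74.4 and 24.5 in Wt pools. Only the Wt pool of experiment 1 was detected, and the groups overlapped. The difference was -1.18 in experiment 1 and 0.27 in experiment 2. Ccl8 was the only one of the 8 detected members whose sign turned between experiments, against 45.2% of the 22389 probe sets detected in at least 1 pool. Most of the 8 were detected in only 1 genotype, which favors a shared sign, and the members were chosen with earlier results known. So this count lends no support to agreement between the experiments. Ccl4 and Ccl9 were nearly equal in experiment 1, with differences of 0.01 and 0.04, so their signs there carry little weight. The 250 bases upstream of the start of Ccl8, taken from RefSeq on GRCm38.p6 (chr11:82114935-82115184, plus strand), are shown for the 1 member of its stretch of genes that turned its sign. In capitals are the TATA box letters TATAAA, 32 bases before the start. These letters, on either strand, stand in 12.4% of all 32851 promoters of that length.
Ccl8: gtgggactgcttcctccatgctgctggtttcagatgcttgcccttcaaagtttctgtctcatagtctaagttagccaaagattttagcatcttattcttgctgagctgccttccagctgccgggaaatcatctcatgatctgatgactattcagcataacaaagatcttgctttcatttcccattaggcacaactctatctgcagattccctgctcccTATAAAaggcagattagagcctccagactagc

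Ccl5 (RANTES), the attractant of T cells, NK cells and monocytes that cytotoxic lymphocytes also make, was high in Cyc cells. Its intensity was 97.3 and 215.7 in Cyc pools and 45.6 and 11.9 in Wt pools. Both Cyc pools were detected and both Wt pools were not. Within the experiments Cyc exceeded Wt by 0.88 and 3.05. Ccl5 rose by 1.97 in the limma fit (SE 0.55, 95% interval 0.53 to 3.41, unadjusted p = 0.0177, adjusted p = 1), among 152 of 20680 probe sets that passed upward (0.735%). As a bound on the group means, Ccl5 was at least 2.90-fold higher in Cyc cells on the linear scale, while the ratio in experiment 1 was 2.13. Without the Cyc pool of experiment 2, which stands apart in airway genes, the Ccl5 difference was 1.45, with a lone Cyc pool left. The call was lost without the Wt pool of experiment 2, where the difference was 1.40, and with no filter on low values (limma, unadjusted p = 0.0658).

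Of 13 T and NK cell markers measured, 5 lay, like Ccl5, above both Wt pools in both Cyc pools. Of all probe sets detected in at least 1 pool, 15.2% did so. That share covers detected probe sets only, while the 13 markers include undetected ones, so the shares are not like for like. Of the 5, Prf1 and Cd2 were under 50 in every pool. Prf1 was at 40.3 and 42.4 in Cyc and 25.4 and 29.6 in Wt pools, and Cd2 at 36.3 and 30.1 in Cyc and 19.8 and 19.2 in Wt pools. Gzma, a granule protease of T and NK cells, measured 103.4 and 175.5 in Cyc pools and 42.0 and 39.1 in Wt pools, and rose by 1.42 (limma, SE 0.31, unadjusted p = 0.00737, adjusted p = 1). Klrd1, an NK cell receptor, was at 36.7 and 90.8 in Cyc and 11.5 and 15.4 in Wt pools. Nkg7, a granule protein of the same cells, was at 24.9 and 67.4 in Cyc and 10.9 and 10.8 in Wt pools. Klrd1 and Nkg7 were detected only in the Cyc pool of experiment 2. Over the whole list 5 of 13 were detected in some pool, and the summed intensity was 342 and 595 in Cyc and 198 and 286 in Wt pools. Other markers of the list did not follow Ccl5. Cd3g, a chain of the T cell receptor complex, overlapped, at 46.4 and 59.0 in Cyc and 23.8 and 67.0 in Wt pools, and Cd3d, another chain, was detected only in a Wt pool, at 18.6 and 29.0 in Cyc and 20.0 and 52.3 in Wt pools. Gzmb, a further granule protease, was at 2.7 and 31.5 in Cyc and 15.5 and 1.8 in Wt pools. Cd3e was under 10 and Cd4 below 0 in all 4 pools. The part of these cells in the Ccl5 difference was not tested.

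Ccl6 and Ccl9, chemokines of rodents that myeloid cells make and that act on Ccr1, stood above Wt mainly in experiment 2. The first probe set of Ccl9 (1417936_at) measured 37.2 and 114.9 in Cyc pools and 35.7 and 25.6 in Wt pools. Only the Cyc pool of experiment 2 was detected, and in experiment 1 Cyc and Wt were nearly equal, with differences of 0.04 and 1.65. The other Ccl9 probe set (1448898_at) stayed under 50, at 14.8 and 44.2 in Cyc and 11.7 and -0.8 in Wt pools, and differed by 0.15 and 1.91. Ccl6 (1417266_at) measured 36.3 and 72.9 in Cyc pools and 20.3 and 12.5 in Wt pools, with differences of 0.53 and 1.64. Again the Cyc pool of experiment 2 alone passed the limit. The other Ccl6 probe set (1420249_s_at) was under 50 throughout, at 16.3 and 26.8 in Cyc and 4.4 and 4.9 in Wt pools, and differed by 0.66 and 1.03. So both probe sets of each gene ran the same way in each experiment. Detected in 1 pool, neither gene entered the main test. As bounds on the group means, Ccl9 was at least 1.31-fold and Ccl6 at least 1.03-fold higher in Cyc cells. Both bounds take in the undetected Cyc pool of experiment 1, where the ratio of Cyc to Wt was only 1.04 for Ccl9. Without the Cyc pool of experiment 2 the differences of the detected probe sets were 0.20 for Ccl9 and 0.70 for Ccl6.

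The summed macrophage markers were also highest in the Cyc pool of experiment 2. Lyz2, the lysozyme of myeloid cells, measured 166.5 and 560.1 in Cyc pools and 182.4 and 76.9 in Wt pools. Csf1r, the receptor for the macrophage growth factor M-CSF, measured 81.2 and 218.9 in Cyc pools and 98.0 and 30.4 in Wt pools. The summed intensity of the 14 macrophage markers was 753 and 1875 in Cyc and 933 and 882 in Wt pools. Of these, 9 were detected in some pool, while Cd163, a scavenger receptor of resident macrophages, was at 3.0 or less in every pool. Mertk, a receptor for the uptake of dying cells, ran otherwise, at 232.1 and 468.4 in Cyc and 409.2 and 576.4 in Wt pools. None of the 5 macrophage markers tested passed the thresholds. B cell markers were highest in the same pool, with sums of 138 and 356 in Cyc and 143 and 103 in Wt pools. Among them Ms4a1 (CD20) was at 41.5 and 121.2 in Cyc and 32.1 and 19.9 in Wt pools, and Cd22 at 48.8 and 68.0 in Cyc and 46.5 and 43.8 in Wt pools. The neutrophil sum of 143 and 1169 in Cyc and 253 and 59.7 in Wt pools rested on Ltf (lactoferrin), which glandular epithelium also makes, at 16.8 and 1068.6 in Cyc and 126.4 and 18.3 in Wt pools. S100a8, a neutrophil calcium-binding protein, went otherwise, at 45.8 and 10.5 in Cyc and 53.3 and 10.3 in Wt pools. The part of these cells in the Ccl6 and Ccl9 differences was not tested.

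**Figure D2:**
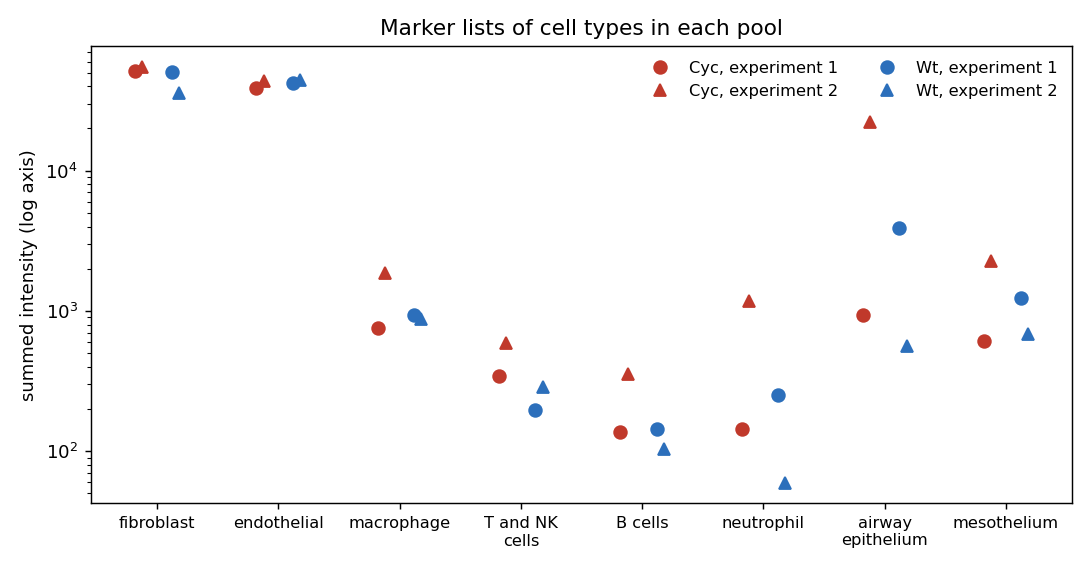
Summed intensity of the marker lists of 8 cell types in each pool, on a log axis, with red Cyc symbols left of blue Wt symbols; circles are experiment 1 and triangles experiment 2. Fibroblast and endothelial sums lie between 35739 and 55089 in the 4 pools. All sums but the endothelial one are highest in the Cyc pool of experiment 2, the neutrophil sum through Ltf.

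The Ccl6 and Ccl9 genes are neighbors with a single annotated gene, E230016K23Rik, between them, and their upstream sequences share runs of letters. The 250 bases before each start are printed from RefSeq on GRCm38.p6 because both genes ran together, with the runs of 12 or more bases found in both in capitals. That of Ccl6 is chr11:83593088-83593337 and that of Ccl9 chr11:83578637-83578886, both on the minus strand.
Ccl6: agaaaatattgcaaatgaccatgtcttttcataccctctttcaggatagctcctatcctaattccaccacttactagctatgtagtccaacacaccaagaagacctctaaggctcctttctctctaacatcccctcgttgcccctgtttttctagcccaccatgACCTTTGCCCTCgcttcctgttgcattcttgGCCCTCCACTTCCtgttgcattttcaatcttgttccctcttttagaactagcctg
Ccl9: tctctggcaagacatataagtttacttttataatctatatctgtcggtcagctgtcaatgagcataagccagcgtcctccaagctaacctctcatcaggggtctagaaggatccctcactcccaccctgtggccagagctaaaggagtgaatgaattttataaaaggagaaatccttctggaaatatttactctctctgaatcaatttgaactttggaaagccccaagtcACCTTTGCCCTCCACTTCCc
The run ACCTTTGCCCTCCACTTCC lies 20 to 2 bases before the start of Ccl9. Ccl6 holds its first 12 bases 86 to 75 bases before the start and its last 13 bases 55 to 43 bases before the start. Of the 32851 promoters 4 hold ACCTTTGCCCTC and 5 hold GCCCTCCACTTCC, these genes included. CTTCC, the core letters of ETS family sites, ends the run of Ccl9 and the second run of Ccl6, and stands on either strand in 64.1% of promoters. TATAAA matched at 3 places in Ccl9, 2 of which overlap, and at none in Ccl6. An NF-kB site pattern matched at 1 place in Ccl9, from 35 bases before the start, and at none in Ccl6. This pattern stands on either strand in 7.25% of promoters, and its use in these cells was not tested. The sequences are those of the reference strain and not of FVB mice. Promoters of Ccl2, Ccl4, Ccl5, Ccl7 and Ccl11 were not analysed here.

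Ccl4 (MIP-1β) and Ccl3 (MIP-1α), which activated macrophages and lymphocytes release, did not differ clearly. Ccl4 measured 58.1 and 52.3 in Cyc pools and 57.8 and 22.3 in Wt pools. Of these only the Wt pool of experiment 2 was undetected, and the groups overlapped. The limma fit gave 0.42 (SE 0.38, 95% interval -0.58 to 1.42, unadjusted p = 0.324, adjusted p = 1), an interval that includes changes of more than 2-fold upward. Ccl3 averaged 8.31 ± 2.45 in Cyc and -7.93 ± 0.459 in Wt pools (SD, n = 2 each), below the limit in every pool, so no fold is given. Ccl19, which draws T cells and dendritic cells to lymphoid tissue through Ccr7, is read here only by a probe set (1449277_at) annotated to 9 other symbols as well. That probe set was at 6.4 and 15.7 in Cyc and -28.8 and -0.7 in Wt pools, and these values cannot be assigned to Ccl19.

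Within the family the directions were opposed. Of the 8 detected members, 3 had both Cyc pools above both Wt pools (Ccl5, Ccl6 and Ccl9), 3 had both below (Ccl2, Ccl7 and Ccl11) and 2 overlapped (Ccl4 and Ccl8). Over the 22389 detected probe sets, 15.2% lay above in this sense and 8.14% below. A member detected in only 1 genotype had to differ to be counted, so these counts describe the members and lend no support to a change. The sizes differed by experiment as well. In experiment 1, 4 members were lower by 2-fold or more on the log2(intensity + 16) scale and 0 higher, against 2.63% and 0.987% of detected probe sets. In experiment 2, 1 was lower and 3 were higher by that much, against 0.393% and 4.51%. Over all detected probe sets the experiments leaned opposite ways too, with 38.2% higher in Cyc in experiment 1 and 60.0% in experiment 2. Of the 8 members 4 and 5 were higher. The low members were farthest from Wt in experiment 1 and the high members in experiment 2. The sign of 7 of the 8 was shared, though Ccl4 and Ccl9 differed by only 0.01 and 0.04 in experiment 1. Of the 4 members tested, 1 rose, 1 fell and 2 did not pass. A block for the experiment left 2 members past the thresholds, beside 1.15% of all tested probe sets, and without a filter on low values 1 member, Ccl11, passed, beside 0.411%. The median of the 4 tested members was -0.13, beside -0.02 over all probe sets tested. By experiment that median was -0.52 and 0.27, beside -0.10 and 0.06. With 2 pools against 2, the smallest p of a two-sided exact permutation test is 0.333.

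The detected members with opposed directions lay in 2 separate stretches of chromosome 11. In RefSeq's annotation of GRCm38.p6, Ccl2, Ccl7, Ccl11, Ccl12, Ccl8 and Ccl1 lie in a row on chromosome 11. Farther along the same chromosome, beyond 25 protein-coding genes, lie Ccl5, Ccl9, Ccl6, Ccl3 and Ccl4. The 3 members lower in both Cyc pools are all in the first stretch, and the 3 detected members higher in both Cyc pools are all in the second. Ccl8 and Ccl4, which overlapped, lie 1 in each. Ccl12 and Ccl1, the remaining genes of the first stretch, were under 50 in every pool, with Ccl12 at 8.4 and -7.2 in Cyc and 15.7 and -10.3 in Wt pools and Ccl1 at -20.8 and 7.5 in Cyc and -10.0 and -5.0 in Wt pools. Ccl19 lies on chromosome 4. Ccl7, Ccl6 and Ccl9 were each detected in 1 pool only. The arrangement in 2 stretches was noticed after the values were seen and has no test.

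**Figure D3:**
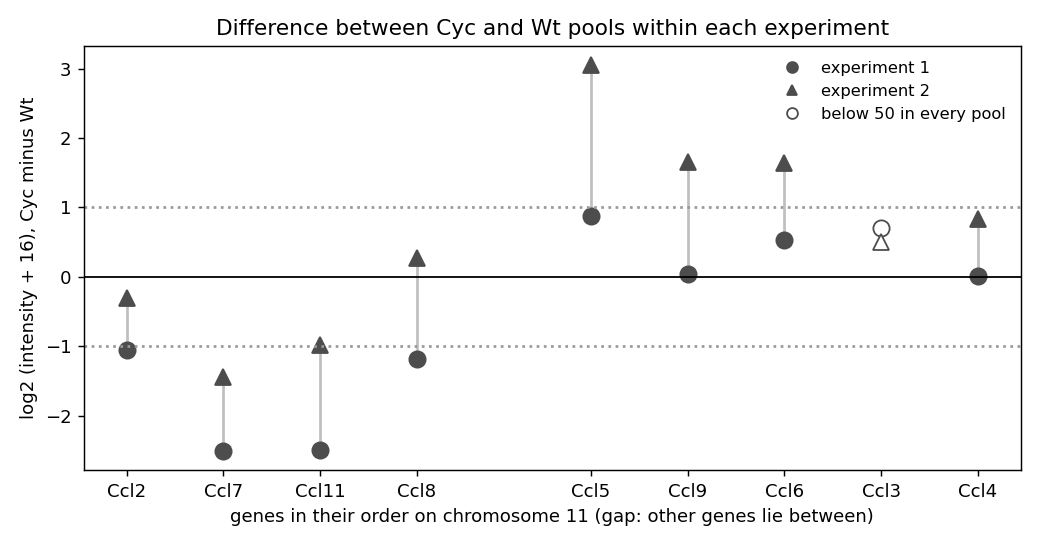
Difference between Cyc and Wt pools, as log2(intensity + 16), for each CC chemokine gene of chromosome 11 in chromosomal order; circles are experiment 1, triangles experiment 2, open symbols a gene below 50 in every pool and dotted lines 2-fold. Ccl2, Ccl7 and Ccl11 lie below 0 in both experiments, Ccl5, Ccl9, Ccl6 and Ccl4 at or above 0, and Ccl8 on both sides.

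Of 13 other CC chemokines 9 were measured and 1 detected. This was Ccl27a, a chemokine of epithelia, at 66.6 and 95.9 in Cyc and 73.8 and 94.0 in Wt pools, with a difference of -0.05. Ccl28, another epithelial chemokine, was at 26.5 and 46.1 in Cyc and 42.3 and 35.3 in Wt pools.

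The signaling receptors were mostly at background. Of 10 CC receptors measured, 2 were detected. Ccrl2, which binds the attractant chemerin without signaling, was at 360.3 and 384.8 in Cyc and 389.4 and 345.6 in Wt pools, with a limma difference of 0.02 (SE 0.23). Ccr2, the receptor of Ccl2 and Ccl7 on monocytes, was at 22.3 and 73.5 in Cyc and 11.1 and 13.9 in Wt pools, detected only in the Cyc pool of experiment 2. The receptors of Ccl11 and of Ccl6 and Ccl9 were near 0, with Ccr3 at -7.9 and -0.7 in Cyc and -4.2 and -4.4 in Wt pools and Ccr1 at 3.3 and 12.5 in Cyc and -2.6 and 7.4 in Wt pools.

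Atypical receptors, which bind chemokines without G protein signaling and take them up, were detected in every pool. Ackr2, the scavenger of inflammatory CC chemokines such as Ccl2, Ccl5 and Ccl11, was at 465.2 and 472.2 in Cyc and 284.2 and 279.5 in Wt pools. The pools of a genotype lay close together and the groups were apart. Its difference was 0.70 (limma, SE 0.22, unadjusted p = 0.0267, adjusted p = 1), under the 2-fold threshold. Ackr1, which binds inflammatory chemokines on venules, was at 203.7 and 226.1 in Cyc and 149.8 and 142.1 in Wt pools. Ackr3, a receptor for Cxcl12, was at 5317.7 and 5264.1 in Cyc and 5090.0 and 4037.7 in Wt pools. Ackr4, which takes up Ccl19 and Ccl21, overlapped, at 129.2 and 254.4 in Cyc and 192.4 and 313.2 in Wt pools. None of the 4 passed both thresholds, and their median difference was 0.37.

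**Figure D4:**
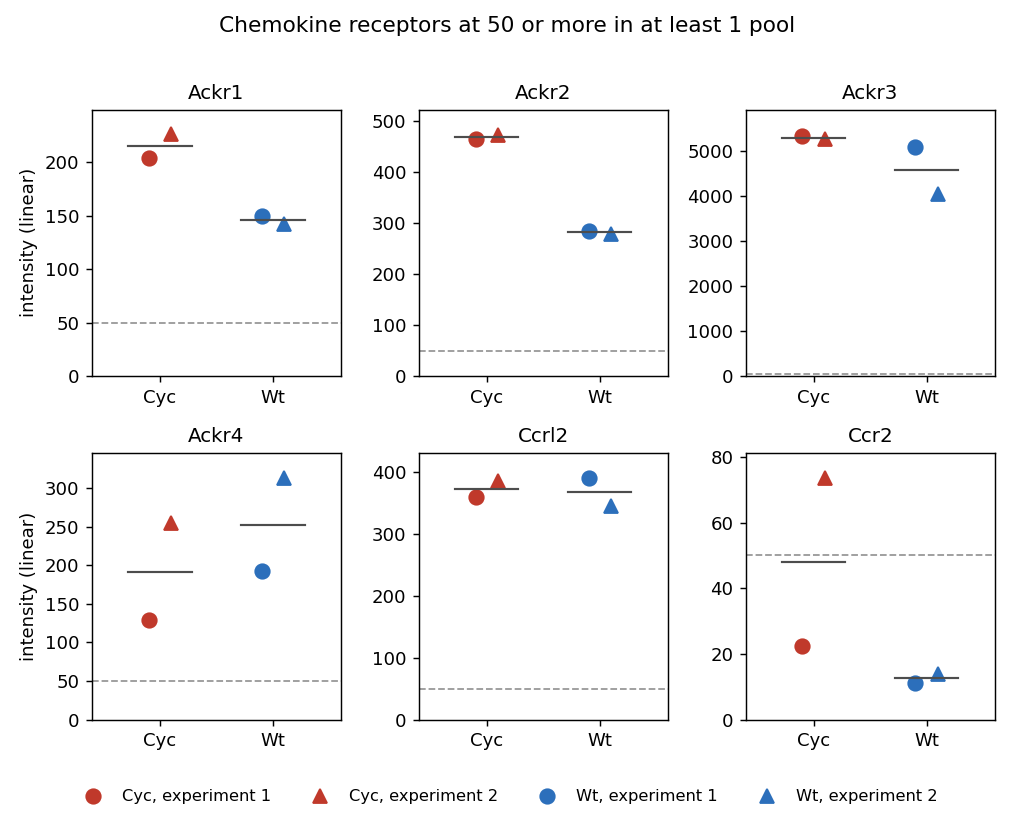
Intensity (linear scale) of the 6 chemokine receptors detected in at least 1 pool, with Cyc on the left and Wt on the right; circles are experiment 1, triangles experiment 2, horizontal lines the mean of the 2 pools and the dashed line 50. Ackr1, Ackr2 and Ackr3 lie higher in both Cyc pools than in both Wt pools, Ackr4 and Ccrl2 overlap, and Ccr2 passes 50 in 1 Cyc pool.

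Genes that act on chemokines after release, or that induce them, mostly did not pass the thresholds. Of 8 heparan sulfate carriers tested, which hold chemokines on the cell surface, 1 passed. Sdc1 (syndecan-1) was at 910.9 and 1424.5 in Cyc and 532.6 and 486.4 in Wt pools and rose by 1.14 (limma, SE 0.31, unadjusted p = 0.0154, adjusted p = 1). The carriers' median was 0.44, and Hspg2 (perlecan) overlapped between genotypes, at 2017.8 and 4356.4 in Cyc and 2276.4 and 4318.7 in Wt pools, as did Sdc3, at 1255.3 and 1702.8 in Cyc and 1103.1 and 1662.1 in Wt pools. Of 6 tested proteases that can trim chemokines, 0 passed (1 at limma's unadjusted p alone), with a median of 0.35. Adam10 was at 3207.8 and 4357.7 in Cyc and 3038.3 and 4068.0 in Wt pools, and Mmp2 at 2200.9 and 2488.6 in Cyc and 1913.2 and 1491.2 in Wt pools. Mmp3 (stromelysin-1), at 59.8 and 120.8 in Cyc and 44.0 and 8.8 in Wt pools, passed when the experiment was a block (difference 1.40, limma's unadjusted p = 0.033, adjusted p = 0.699). Of 13 tested genes of NF-kB signaling and its inducers, 0 passed (0 at the unadjusted p alone), with a median of 0.08, and 1 passed with the block, Il6. Among them Nfkbia, the NF-kB inhibitor and target, was at 11738.5 and 9443.6 in Cyc and 11941.2 and 8290.9 in Wt pools, and Tnfrsf1a, a receptor of TNF, at 2196.8 and 2209.0 in Cyc and 1904.1 and 1910.7 in Wt pools. Of the type 2 inducers of Ccl11, their receptors and Stat6, 3 genes were tested and 0 passed. These were receptor chains and Stat6, at 689.7 and 864.4 in Cyc and 881.5 and 956.1 in Wt pools. The cytokine genes Il4 and Il13 were below 50 throughout and were not tested.

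In the marker lists of the stroma, Col1a1, the α1 chain of collagen I, was at 456.1 and 905.5 in Cyc and 321.3 and 242.5 in Wt pools and rose by 1.16 (limma, unadjusted p = 0.0379, adjusted p = 1). Col1a2 passed at a probe set other than its brightest. The other fibroblast markers did not pass, nor did any of the 10 endothelial, 4 lymphoid stroma, 7 airway, 6 mesothelium, 7 progenitor, 1 neutrophil or 1 dendritic cell markers tested. The summed fibroblast intensity was 51466 and 55089 in Cyc and 50336 and 35739 in Wt pools, and the endothelial sum 38855 and 43925 in Cyc and 42239 and 44554 in Wt pools. Ccl2, Ccl7, Ccl8 and Ccl11 were brightest in the Wt pool of experiment 1, which also came second in airway and mesothelium sums. The part of stromal, airway or mesothelial cells in the lower values of Ccl2, Ccl7 and Ccl11 was not tested.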

How the data were processed

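Freshly sorted Sca-1 cells of 2 Cyc and 2 Wt pools were measured on Affymetrix Mouse 430 2.0 arrays from 250 ng of RNA. The deposited intensities are on a linear scale and were normalized by the authors in Resolver 7.2; the background correction and summary method are not given in the sources used here. Of 45101 rows 64 controls were left out. Between 5784 and 7231 values per array lay below 0. Differences are on log2 of the intensity plus 16, with negative intensities, also in summed marker lists, taken as 0. Tests used limma 3.58.1 (R 4.3.3) and the 20680 probe sets at 50 or more on at least 2 arrays (2 residual and 2.68 prior degrees of freedom, two-sided, Benjamini-Hochberg adjustment over all tested), without a block, as the methods use none. The fit was tested on simulated data in which the arrays varied independently, with no effect of the experiment. The thresholds, 2-fold and an unadjusted p under 0.05, are those of the methods, whose Resolver error model was not run.

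Gene symbols come from the platform annotation, with 34945 probe sets having 1 symbol, 932 several and 9160 none. For a gene of a list with several probe sets, the one of highest mean intensity was used. Where both pools of the dimmer genotype were under 50, folds are bounds, the geometric mean of the brighter genotype over 50. Such a bound describes the group means and need not hold within each experiment. A pool of the brighter genotype under 50 entered it at its value. Same-numbered arrays deviated together from their group means (correlation 0.447) and shared poly-A control levels, so a fit with the number as a block is an alternative. The labels do not say that both groups' pools were taken on the same days. P-values cover only the variation among these 4 pools. The members and the 19 gene lists were chosen with earlier results of these data known. The rule for names took all members and, of other lists, genes past the thresholds and the 2 brightest. The 2 brightest of the fibroblast, endothelial, lymphoid stroma, airway, mesothelium, dendritic and progenitor lists and of the type 2 genes are not all named. Ccl1, Ccl12, Ccr1, Ccr3, Ackr1, Ackr4, Il4, Il13, Csf1r and Cd163 were named after their values were seen. So were Klrd1, Nkg7, Prf1, Cd2, Cd3d, Cd3e, Cd4, Gzmb, Mmp3, Kit and Il6. Promoters are RefSeq's, for 5 of the 10 members. Alternatives were other pseudocounts, filters, scalings, variance estimates and the omission of each pool.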

Additional observations from a re-analysis of the deposited data

Results flagged for a closer look

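Ccl8 (MCP-2) was picked out because its direction differed between experiments. It lay -1.18 from Wt in experiment 1 and 0.27 in experiment 2, on the log2(intensity + 16) scale. With 1 pool per genotype in each experiment, the difference between them was not tested. Only the Wt pool of experiment 1 was above the detection limit.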

How the results depend on the processing

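The counts of members past the thresholds depended on the low-value filter and on pooling of variances. With 2 members past them in the reported fit, there was 1 without a filter, 0 with a filter at 100 and 0 in a per-probe-set test without moderated variances, and leaving out 1 pool gave 1 to 2. Over all probe sets the count was 176 in the reported fit, 112 with a pseudocount of 50, 54 in the per-probe-set test and 158 to 1167 when 1 pool was left out, the lone pool of a genotype then being assumed to vary like the others. It was 641 without the Cyc pool of experiment 1 and 1167 without that of experiment 2. Without a filter the median was 0.67, but over all 12 member probe sets. These include undetected ones, 2 probe sets each of Ccl6 and Ccl9, and the one not assigned to Ccl19. The median of the 4 tested members lay between -0.59 and 0.34 on leaving out a pool, positive only without the Wt pool of experiment 1. With the replicate number as a block, 2 members and 238 probe sets passed, and the block changed no call of a member. Of the genes of other lists named, Il6 and Mmp3 passed only with the block.

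Ccl11 lost its call in the per-probe-set test and with the filter at 100, where it was not tested. Ccl5 lost it in both of these, without a filter and without the Wt pool of experiment 2. Ccl4 turned to -0.05 without the Wt pool of experiment 2 and Ccl8 to 0.13 without that of experiment 1, in ranges of -0.05 to 0.89 and -1.03 to 0.13 over the pools left out. The count of members with opposite signs was 0 instead of 1 among probe sets detected on at least 2 arrays, and 0 where 2-fold was asked for in both experiments. A detection limit of 100 left 0 and 2 members in the Cyc pools and 3 and 0 in the Wt pools. A limit of 25 gave 5 and 9 member probe sets in the Cyc pools and 7 and 4 in the Wt pools. Of the remaining values of single members and genes, 101 kept direction and side of the threshold or moved within the spread, and 8 moved beyond it. With most members near 50, signal over background limits every fold above.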

Other observations

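Il6, a cytokine that stromal cells release with Ccl2 on inflammatory stimulation, was higher in Cyc than in Wt cells in each experiment, where Ccl2 was lower. It was at 1234.8 and 374.1 in Cyc and 487.2 and 159.4 in Wt pools. The difference was similar in both experiments, 1.31 and 1.15, but the levels of the experiments were far apart, the groups overlapped, and limma's unadjusted p was 0.175 (adjusted p = 1). Blocked by experiment, the difference was 1.23 (SE 0.19, limma's unadjusted p = 0.000977, adjusted p = 0.48), past the 2-fold and unadjusted thresholds.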
